A study of Mus musculus with 12 samples.

Results

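Muscle fibers take up glucose when insulin binds its receptor at the cell surface. The receptor phosphorylates the docking proteins IRS1 and IRS2, which switch on PI3K and the kinase AKT2. AKT2 then inactivates the brake proteins TBC1D4 and TBC1D1, so that vesicles carrying the transporter GLUT4 move to the membrane. GRB14 and GRB10 are related adaptors that bind the activated receptor and inhibit its kinase. GLUT1 takes up glucose without waiting for insulin.

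The 10 genes of this pathway described here were *Grb14*, *Grb10*, *Insr*, *Irs1*, *Irs2*, *Akt2*, *Slc2a4*, *Slc2a1*, *Tbc1d1* and *Tbc1d4*. They were found by gene symbol among 55367 distinct symbols, and each had a row in all 12 samples. *Grb14* was chosen by its measured low level in the Fluo-4 abnormal fibers, so its values are given as a description with no test. The other 9 were tested, and all 9 passed the filter on low values, a mean of 0.02 TPM (transcript abundance per length, scaled to the same total in each sample) in at least 1 group.

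The RNA came from isolated fibers of the extensor digitorum longus (EDL), a fast muscle of the mouse hindlimb. There were 4 samples from young mice of 3–4 months, and 4 samples each of Fluo-4 normal and Fluo-4 abnormal fibers from aged mice of 26–28 months. Fibers were loaded with 8 μM Fluo-4, a calcium indicator dye, and the aged fibers were sorted under a fluorescence stereomicroscope into those with ordinary staining and those with abnormal, brighter staining. The methods name C57BL/6 J mice without tying them to each group, no genotype or drug treatment is stated for these samples, and the number of fibers or mice behind a sample is not given in the sources used here. In RNA from isolated fibers that is not resolved by fiber, fewer fibers with a transcript and less of it per fiber cannot be told apart, and p-values measure only the spread between these samples.

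The libraries were those of fast muscle fibers. All 10 muscle fiber markers were above 0 in every sample, and *Myh4*, which encodes the type IIb myosin heavy chain, made up 96.9–98.6% of the TPM of 4 myosin heavy chain genes in the young, 93.7–99.2% in the normal and 98.9–99.7% in the abnormal samples. Mitochondrially-encoded genes held 7.35–8.01%, 8.75–10.9% and 4.75–6.92% of the TPM in the same order. Summed over 12 endothelial markers, the level was 10.4–23.1 TPM in the young, 12.5–49.1 TPM in the normal and 6.01–24.7 TPM in the abnormal samples. For 9 immune markers it was 0.99–2.62, 6.05–23.1 and 7.97–14.2 TPM, and for 8 fibroblast markers 38.7–81.4, 43.4–184 and 28.3–138 TPM. The 6 adipocyte markers summed to 0 TPM in the young and abnormal samples and to 0–3.08 TPM in the normal samples. Of them, *Adipoq*, *Plin1*, *Lep* and *Cidec* were at 0 in all 12 samples. The erythroid marker *Slc4a1* was also at 0 in all 12, although the 7 erythroid markers summed to 33.1–121, 119–482 and 44.4–236 TPM. None of the markers of other cell types passed the test between abnormal and normal fibers, and their part in the results below was not tested.

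Stretches of promoter show how the related genes of the set begin. They are the 250 bases before the start site in RefSeq, in GRCm38.p6 and read on the minus strand, on which all 4 genes lie. *Grb14* and *Grb10*, the related adaptors, are shown first because their levels went opposite ways. Capitals mark the GC box, GGGCGG or CCGCCC, which was searched on both strands with overlaps allowed, and 5 matches were found in each. The *Grb14* stretch is chr2:65022767-65023016 and the *Grb10* stretch chr11:12037421-12037670.
Grb14: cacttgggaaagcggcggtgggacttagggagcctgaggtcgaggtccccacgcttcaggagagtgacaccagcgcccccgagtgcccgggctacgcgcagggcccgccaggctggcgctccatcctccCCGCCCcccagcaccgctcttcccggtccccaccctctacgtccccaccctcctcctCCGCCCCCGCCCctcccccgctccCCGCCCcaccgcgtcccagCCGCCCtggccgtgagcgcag
Grb10: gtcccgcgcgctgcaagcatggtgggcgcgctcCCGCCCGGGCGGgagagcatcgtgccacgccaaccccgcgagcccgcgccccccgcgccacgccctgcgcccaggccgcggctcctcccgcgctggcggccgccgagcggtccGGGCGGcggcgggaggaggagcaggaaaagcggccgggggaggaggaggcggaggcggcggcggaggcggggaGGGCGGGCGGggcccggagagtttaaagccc
Windows of 300 bases, 250 before and 50 after a start site, were available for 8 of the 10 genes, with 13 windows in all. A GC box lay in 8 of the 13 (61.5%), 1 for each gene, and in 35.7% of the 32851 promoter windows of all genes. The *Grb10* stretch shown is from the first of its 2 windows, and the second (chr11:12027922-12028221) held 0 matches.

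*Irs1* and *Irs2*, the docking proteins of the receptor, each held 1 match to the E-box CACGTG, which reads the same on both strands and is shown in capitals. It lay 115 bases before the start of *Irs1* and 44 bases before that of *Irs2*, and was found in 2 of the 13 windows (15.4%) and in 7.15% of the windows of all genes. The *Irs1* stretch is chr1:82291440-82291689 and the *Irs2* stretch chr8:11008930-11009179.
Irs1: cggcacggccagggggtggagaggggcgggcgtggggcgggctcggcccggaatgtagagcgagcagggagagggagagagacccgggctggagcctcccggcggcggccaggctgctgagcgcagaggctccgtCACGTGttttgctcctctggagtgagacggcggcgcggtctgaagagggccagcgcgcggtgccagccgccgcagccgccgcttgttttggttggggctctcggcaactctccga
Irs2: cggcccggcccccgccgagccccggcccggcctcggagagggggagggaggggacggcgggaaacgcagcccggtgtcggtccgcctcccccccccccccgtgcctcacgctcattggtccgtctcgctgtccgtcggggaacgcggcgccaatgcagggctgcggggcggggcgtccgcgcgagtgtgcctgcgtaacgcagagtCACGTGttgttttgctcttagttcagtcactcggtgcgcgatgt
The letters GTAAACA, a core of the sites bound by FoxO factors, were in 3.65% of all windows and in none of the 13. These matches describe letters, not binding.

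Levels in TPM, which are per transcript length, spanned a wide range across the pathway. In the normal fibers, the insulin-dependent transporter *Slc2a4* had a mean of 338 TPM, followed by *Akt2* at 73.4 TPM, *Irs2* at 40.6 TPM, *Tbc1d1* at 20.2 TPM and *Grb14* at 16.0 TPM. *Insr* at 8.35 TPM, *Grb10* at 4.74 TPM, *Tbc1d4* at 4.62 TPM, *Slc2a1* at 4.15 TPM and *Irs1* at 1.70 TPM were the lower members. Among neighbours in this order, the sample ranges did not overlap between *Slc2a4* and *Akt2*, between *Akt2* and *Irs2* and between *Grb14* and *Insr*, and overlapped between all others.

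**Figure D1:**
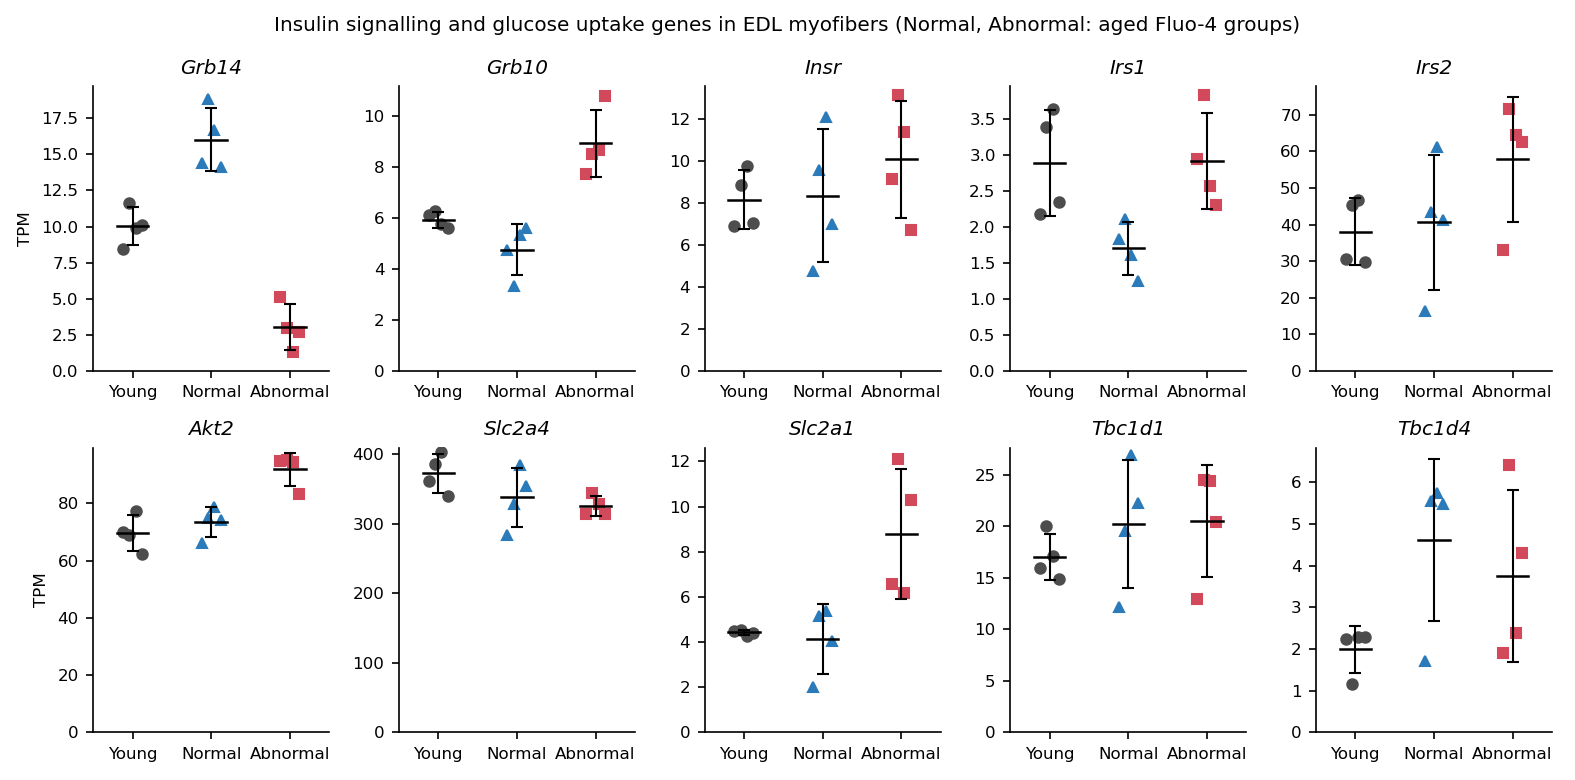
Level of each of the 10 genes in TPM (linear axes from 0) in the young, Fluo-4 normal and Fluo-4 abnormal samples, with points for samples, a bar for the mean and whiskers for the SD (n = 4). The 4 abnormal samples lie at 1.29–5.11 TPM for *Grb14*, under all others, and at 7.72–10.8 TPM for *Grb10*, above all others.

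*Grb14*, an inhibitor of the insulin receptor, had the largest difference in log2(TPM + 1) between the aged groups among the 10 genes, a rank that rests on the values that chose it. It lies on chr2:64742812-64855331 (GRCm39, minus strand). Its level was 8.43, 11.7, 9.87 and 10.1 TPM in young samples 1 to 4. In the normal fibers it was 14.4, 18.9, 16.7 and 14.2 TPM, and in the abnormal fibers 5.11, 3.00, 1.29 and 2.73 TPM. The order of the groups was therefore normal, young and abnormal, with no overlap between neighbours: the lowest normal sample stood above the highest young sample, and the lowest young sample above the highest abnormal one. The means were 10.0 ± 1.32 TPM, 16.0 ± 2.20 TPM and 3.03 ± 1.57 TPM (SD, n = 4). The ratio of the normal to the abnormal mean was 5.28. On the log2(TPM + 1) scale, abnormal fibers were 2.15 (SE 0.23) under normal fibers and 1.53 under young fibers, and normal fibers were 0.63 above young fibers. These values chose the gene and are not a test.

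*Grb10*, which encodes the related adaptor, went the other way between the aged groups. It lies on chr11:11880498-11988683 (minus strand). The young samples were at 6.12, 6.24, 5.75 and 5.58 TPM and the normal samples at 4.74, 3.33, 5.31 and 5.59 TPM, whereas the abnormal samples were at 7.72, 8.50, 8.66 and 10.8 TPM. Every abnormal sample was above every sample of the other groups. Between abnormal and normal fibers, *Grb10* rose by 0.80 on the log2 scale (SE 0.15, adjusted p = 0.0066 by limma), with a ratio of means of 1.88. Against young fibers the difference of 0.51 (SE 0.15) did not pass the test (adjusted p = 0.053), although it did so without normal sample 1 (adjusted p = 0.047) or normal sample 2 (adjusted p = 0.029), which are not in that contrast but enter the common estimate of the spread. Normal fibers were 0.29 under young fibers on this scale (adjusted p = 0.46).

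The balance of the adaptors turned over with these levels. Within a sample, the ratio of *Grb10* to *Grb14* does not depend on how samples are scaled to each other. It was 0.54–0.73 in young and 0.18–0.40 in normal fibers, so *Grb14* was the more abundant in all 8 samples. In the abnormal fibers it was 1.51, 2.83, 6.70 and 3.95, so *Grb10* was the more abundant in all 4. Because *Grb14* was chosen for its level in these fibers, the ratio carries the same choice.

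Of the 9 genes tested, 3 were higher and 0 lower in abnormal than in normal fibers, namely *Grb10*, *Akt2* and *Slc2a1*, where 9.35% of all 14428 genes tested were called, 7.36% higher and 1.99% lower. With a filter of a mean of 5 TPM in at least 1 group, these 3 of 7 were called higher, beside 1419 of 6348 genes. *Slc2a1* passed that filter only through the abnormal fibers (means of 4.42 TPM in young, 4.15 TPM in normal and 8.78 TPM in abnormal fibers). Such a filter favours genes high in 1 group, so its counts are a description and no separate support. Besides the 3 called, *Irs1* had an unadjusted p under 0.05 in the main fit. The groups did not overlap for these 4 of the 9, where 14% of all genes did not overlap, 11.5% with the abnormal samples higher and 2.54% with them lower. The median difference of all genes tested was 0.10 on the log2 scale, so that values relative to it are lower by that amount: 0.70 for *Grb10*, 0.84 for *Slc2a1*, 0.43 for *Irs1* and 0.22 for *Akt2*. A scaling that brings this median to 0.00 (TMM-type factors) changed the split over all genes from 1062 higher and 287 lower to 321 higher and 559 lower. Under it *Grb10* was the one gene of the 9 called higher, and *Slc2a4* was called lower. Over the 21 alternatives run, the adjusted p by limma was 0.0024–0.094 for *Grb10*, 0.015–0.52 for *Akt2*, 0.012–0.099 for *Slc2a1*, 0.020–0.68 for *Irs2* and 0.028–0.92 for *Slc2a4*.

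**Figure D2:**
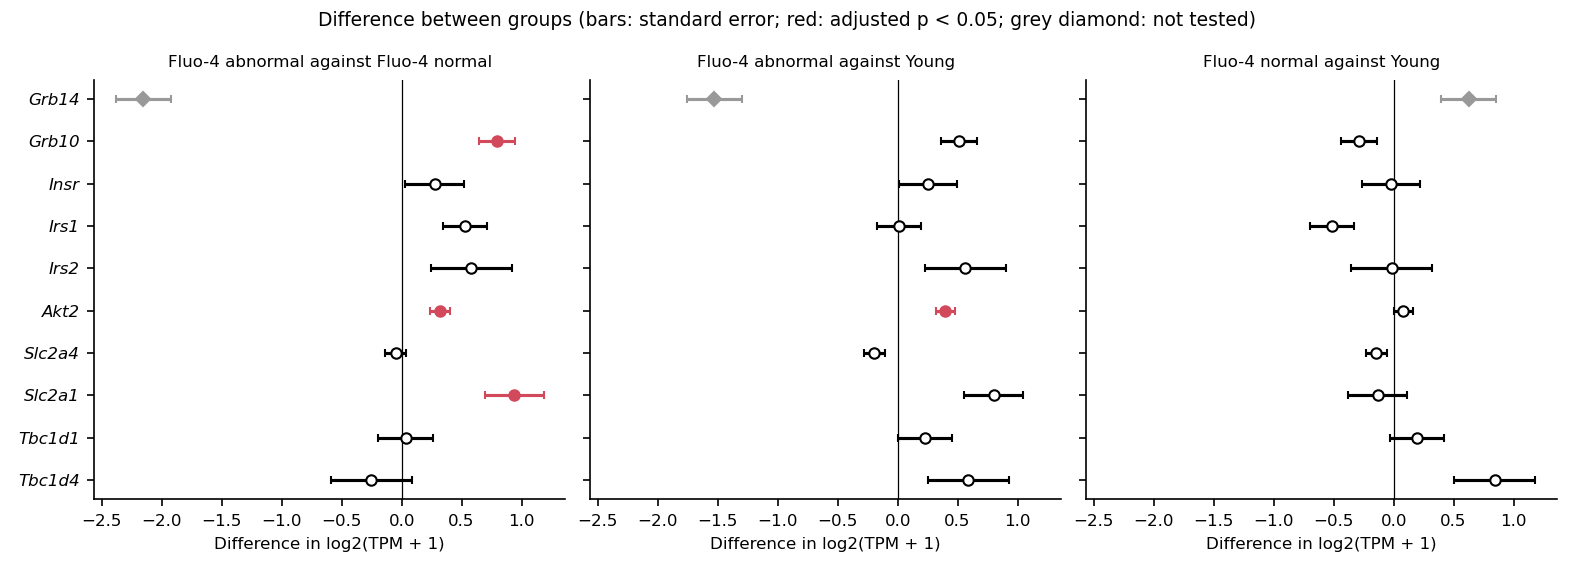
Differences between group means of log2(TPM + 1) with the standard error, for the 10 genes (rows) in 3 comparisons (panels), where filled red points passed an adjusted p of 0.05, open points did not, and the grey diamond is *Grb14*, which was not tested. *Grb10* (0.80), *Akt2* (0.32) and *Slc2a1* (0.94) were called between abnormal and normal fibers, and *Akt2* (0.40) between abnormal and young fibers.

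*Insr*, the insulin receptor (chr8:3172061-3329647, minus strand), spread widely within the groups. It was at 6.90–9.77 TPM in young and 4.75–12.1 TPM in normal fibers, and at 9.13, 13.2, 11.4 and 6.70 TPM in abnormal fibers. The groups overlapped, and 2 of the 4 same-numbered pairs of aged samples were higher in the abnormal one. The difference between abnormal and normal fibers was 0.27 (95% interval -0.25 to 0.80, adjusted p = 0.52 by limma), an interval that holds differences in either direction.

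*Irs1*, a docking protein of the receptor (chr1:82210822-82269338, minus strand), was the member of lowest level in normal fibers, with 1.84, 2.11, 1.60 and 1.25 TPM. The young samples had 2.18, 3.39, 3.63 and 2.35 TPM, and the abnormal samples 2.94, 3.83, 2.57 and 2.31 TPM. The normal samples were thus under all samples of both other groups, whereas young and abnormal fibers overlapped. The difference of 0.53 (SE 0.18) between abnormal and normal fibers did not pass the test over all genes (unadjusted p = 0.012, adjusted p = 0.087 by limma), nor did it in any of the alternatives run, where the adjusted p was 0.067–0.26. Between normal and young fibers the difference was -0.52 (SE 0.18, adjusted p = 0.23), and between abnormal and young fibers 0.01 (95% interval -0.38 to 0.41).

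*Irs2*, the other docking protein (chr8:11034681-11059499, minus strand), was many times more abundant. The young samples had 30.6, 45.4, 46.6 and 29.7 TPM, the normal samples 16.5, 43.5, 61.1 and 41.2 TPM and the abnormal samples 32.9, 71.5, 64.6 and 62.5 TPM. The groups overlapped, and sample 1 was the lowest of both aged groups. The difference between abnormal and normal fibers of 0.58 (SE 0.34) did not pass the test without pairing (adjusted p = 0.30 by limma), and moved to 0.21 without normal sample 1 and 0.83 without abnormal sample 1, neither of which passed (adjusted p = 0.68 and 0.13). Same-numbered aged samples deviated together across genes, and with the replicate block *Irs2* was higher in abnormal fibers (adjusted p = 0.020), by 0.08 to 0.95 in the 4 pairs. *Irs2* exceeded *Irs1* 12.7- to 14.0-fold in young, 8.98- to 38.1-fold in normal and 11.2- to 27.1-fold in abnormal fibers, with the widest spread in the normal group.

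*Akt2*, the AKT kinase that drives GLUT4 movement in muscle (chr7:27284378-27340262, plus strand), had 69.8, 68.8, 77.3 and 62.1 TPM in young fibers and 66.1, 74.9, 78.5 and 74.1 TPM in normal fibers. In abnormal fibers it had 94.8, 95.1, 94.4 and 83.1 TPM, all above every other sample. It rose by 0.40 (SE 0.08, adjusted p = 0.0092 by limma) against young fibers and by 0.32 (SE 0.08, adjusted p = 0.026) against normal fibers. The step was small, and against normal fibers the call was lost with TMM-type factors (0.10, adjusted p = 0.52), with scaling without mitochondrially-encoded genes (0.26, adjusted p = 0.079) and without normal sample 1 (adjusted p = 0.063), normal sample 4 (0.051), abnormal sample 2 (0.075) or abnormal sample 3 (0.063). With TMM-type factors the difference from young fibers was 0.24 (adjusted p = 0.056).

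*Tbc1d1* and *Tbc1d4*, the brakes that AKT releases, did not pass the test in any comparison. *Tbc1d1* (chr5:64313648-64508829, plus strand) was at 14.9–20.0 TPM in young, 12.1–26.9 TPM in normal and 12.9–24.5 TPM in abnormal fibers, and the difference between the aged groups was 0.03 (95% interval -0.45 to 0.52). *Tbc1d4* (chr14:101679135-101846739, minus strand) was at 2.24, 1.15, 2.29 and 2.28 TPM in young fibers, 1.71, 5.55, 5.74 and 5.49 TPM in normal fibers and 1.90, 6.42, 2.38 and 4.302 TPM in abnormal fibers. Normal samples 2 to 4 were above every young sample, and normal sample 1 lay within the young range. The difference between normal and young fibers was 0.84 (SE 0.34, unadjusted p = 0.027, adjusted p = 0.30 by limma), and that between the aged groups -0.25 (95% interval -0.98 to 0.48). *Tbc1d1* exceeded *Tbc1d4* in every sample, 6.52- to 17.4-fold in young, 3.52- to 7.09-fold in normal and 3.82- to 10.2-fold in abnormal fibers.

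*Slc2a4*, which encodes GLUT4, the insulin-dependent transporter, was the most abundant member in all 12 samples (chr11:69831006-69839070, minus strand). The young samples had 361, 385, 404 and 339 TPM, the normal samples 284, 328, 385 and 354 TPM and the abnormal samples 314, 344, 329 and 314 TPM. The 3 groups overlapped. The difference between abnormal and normal fibers was -0.05 (95% interval -0.24 to 0.14, adjusted p = 0.77 by limma), and that between abnormal and young fibers -0.19 (95% interval -0.38 to -0.0045, adjusted p = 0.21). This depended on the scaling: with TMM-type factors *Slc2a4* was called lower in abnormal than in normal fibers (-0.27, adjusted p = 0.028) and than in young fibers (-0.36, adjusted p = 0.0052).

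*Slc2a1*, which encodes GLUT1, the transporter of basal uptake (chr4:118965908-118996365, plus strand), was higher in abnormal fibers. The young samples lay close together at 4.50, 4.54, 4.26 and 4.40 TPM. The normal samples had 2.00, 5.17, 5.37 and 4.06 TPM and the abnormal samples 6.58, 12.1, 6.16 and 10.3 TPM. Every abnormal sample was above every other sample, and the ratio of the abnormal to the normal mean was 2.12. It rose by 0.94 (SE 0.25, adjusted p = 0.030 by limma) against normal fibers. That call was lost without normal sample 1 (0.70, adjusted p = 0.061), normal sample 4 (0.95, adjusted p = 0.060), abnormal sample 2 (0.78, adjusted p = 0.099) or abnormal sample 4 (0.85, adjusted p = 0.080). Under TMM-type factors the difference was 0.75 and also missed the threshold (adjusted p = 0.054), as it did with only the groups compared (adjusted p = 0.079). Against young fibers the difference of 0.80 (SE 0.25) had an adjusted p of 0.061. It passed in 5 of 21 alternatives, without normal sample 1 (adjusted p = 0.017), with a filter of 5 TPM (0.028), only the groups compared (0.027), the *Myh4* share (0.011) and the replicate block (0.029). The filter of 5 TPM took *Slc2a1* in only through the abnormal fibers.

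**Figure D3:**
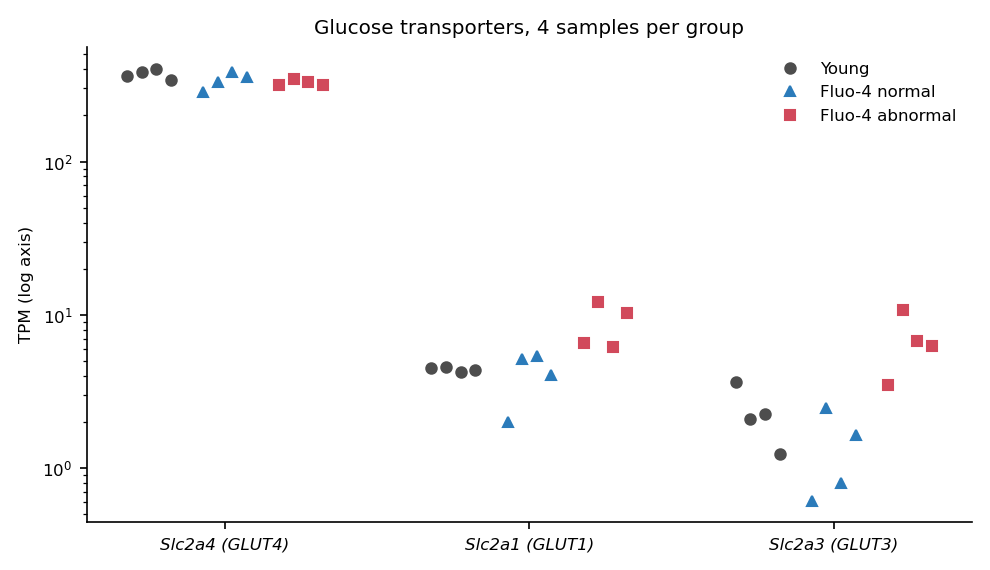
Level in TPM on a log axis of *Slc2a4*, *Slc2a1* and *Slc2a3* in each sample, by group (n = 4). *Slc2a4* stays at 284–404 TPM in all samples, while the abnormal samples lie above all normal samples for *Slc2a1* and *Slc2a3*.

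The mix of transporters moved with *Slc2a1*. The level of *Slc2a1* was 1.06–1.30% of that of *Slc2a4* in young, 0.70–1.58% in normal and 1.87–3.52% in abnormal fibers, and this ratio does not depend on the scaling between samples. *Slc2a3*, which encodes GLUT3, a transporter of high affinity known from neurons, was at 1.23–3.65 TPM in young, 0.61–2.48 TPM in normal and 3.48–10.7 TPM in abnormal fibers. It rose by 1.70 (SE 0.32, adjusted p = 0.0065 by limma) between the aged groups, and the call held in all 21 alternatives. Among the summed TPM of *Slc2a1* to *Slc2a6*, *Slc2a8* to *Slc2a10*, *Slc2a12* and *Slc2a13*, *Slc2a4* held 93.5–94.3% in young, 92.6–94.8% in normal and 89.3–90.6% in abnormal fibers. *Slc2a1* is also a gene of endothelial and erythroid cells, whose marker sums, given above, overlapped between the aged groups. Their part in its level was not tested.

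The type IIb share of the fibers differed between the aged groups, and the members were read beside it. *Myh4* rose by 0.66 (adjusted p = 0.020 by limma) between abnormal and normal fibers, and its share of the myosin heavy chain TPM was 99.2, 93.7, 95.2 and 96.8% in normal samples 1 to 4 and 99.4, 98.9, 99.7 and 99.6% in abnormal samples 1 to 4. Of the normal samples, only sample 1 reached the range of the abnormal samples. In normal sample 1, at 99.2%, *Grb14* was at 14.4 TPM, *Grb10* at 4.74 TPM and *Slc2a1* at 2.00 TPM. With the share as a covariate, the *Grb14* difference was -1.96, the *Slc2a1* difference 1.53 (adjusted p = 0.020) and the *Grb10* difference 0.61, which then missed the threshold (adjusted p = 0.094). The *Akt2* difference became 0.39 (adjusted p = 0.061), the *Irs2* difference 1.21 (adjusted p = 0.10), the *Insr* difference 0.75 (adjusted p = 0.14) and the *Tbc1d1* difference 0.35 (adjusted p = 0.53). *Tbc1d4* and *Slc2a4* changed sign, to 0.52 (adjusted p = 0.45) and 0.05 (adjusted p = 0.84). The fit with the share was not repeated without normal sample 1, so how far these differences rest on that sample is not known. With only 1 normal sample in the abnormal range, the fit cannot separate the share from the group. The part of the type IIb share in the results was therefore not tested.

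**Figure D4:**
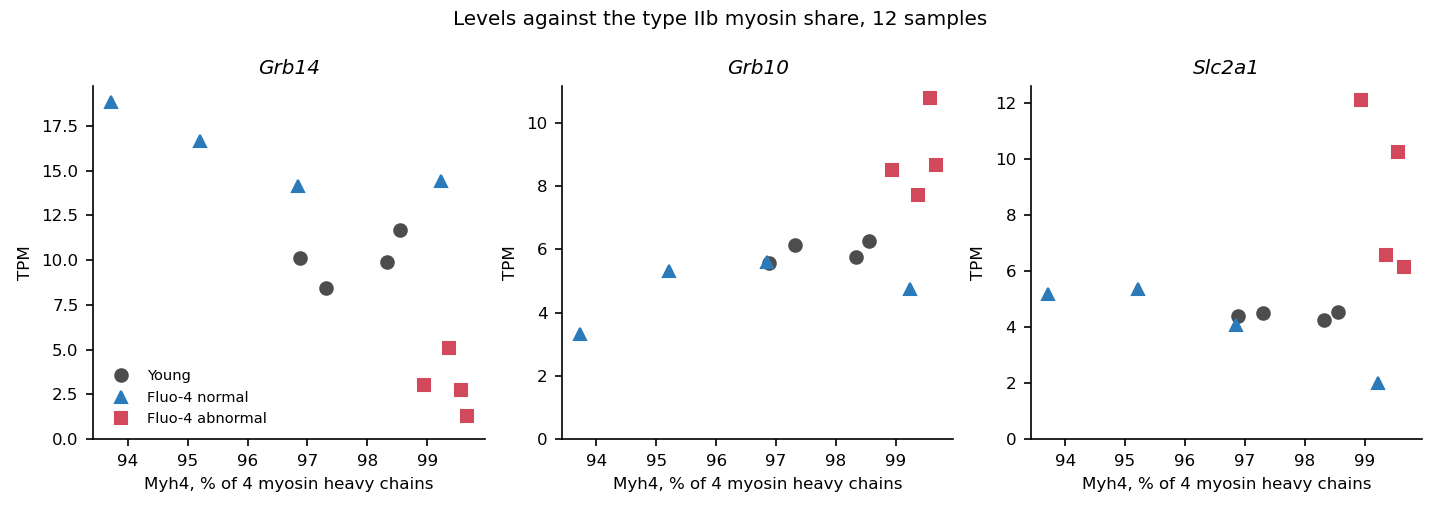
TPM of *Grb14*, *Grb10* and *Slc2a1* (vertical axes, linear from 0) against the *Myh4* share of myosin heavy chain TPM in percent, 1 point per sample, by group. The abnormal samples lie at shares of 98.9–99.7%, the young samples at 96.9–98.6% and the normal samples at 93.7–99.2%.

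Against young fibers, 1 of the 9 genes tested was higher in abnormal fibers, *Akt2*, and 0 were lower, where 8.5% of all genes were called, 6.09% higher and 2.41% lower. The abnormal and young samples did not overlap for *Grb10*, *Akt2* and *Slc2a1*, against 16.2% of all genes, 12.2% higher and 3.95% lower. The median difference of all genes was 0.07. This comparison shares the abnormal samples with the one above, so the values stand side by side and do not support each other. In abnormal against young fibers, differences were 0.25 for *Insr* (adjusted p = 0.59), 0.56 for *Irs2* (0.35), 0.23 for *Tbc1d1* (0.61) and 0.59 for *Tbc1d4* (0.33), none past the test.

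Between normal and young fibers, the comparison of age in fibers of ordinary staining, limma called 0 of the 9 genes, and 1.15% of all genes, 0.561% higher and 0.589% lower. At an unadjusted p under 0.05 there were 2, *Irs1* at -0.52 and *Tbc1d4* at 0.84, and 0 were called in each alternative run. The groups did not overlap for *Irs1*, where the normal samples were lower, against 7.98% of all genes, 3.03% higher and 4.96% lower. For *Insr* the difference was -0.02 (95% interval -0.55 to 0.51), for *Irs2* -0.02 (-0.74 to 0.71) and for *Slc2a4* -0.15 (-0.33 to 0.04), intervals that leave changes of such size open at 4 samples per group.

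The rest of the pathway was described with 8 lists holding 119 further genes, of which 109 were tested. Between abnormal and normal fibers 15 were higher and 0 lower, which is 13.8% against 9.35% of all genes, and the median difference was 0.23 against 0.10. All genes include many of low level, and over the 6348 genes of at least 5 TPM in a group the median difference was 0.20. With a filter at that level, 20 of 62 pathway genes were called higher, beside 1419 of 6348 genes. Some genes, such as *Slc2a3* (means of 2.30 TPM in young, 1.38 TPM in normal and 6.80 TPM in abnormal fibers), passed that filter only through the abnormal fibers. Such a filter favours genes high in 1 group, in both counts. With TMM-type factors the number of pathway genes called was 5 of 109, beside 880 of 14401 genes. Without 1 library each it was 7–16, beside 665–1456 of all genes. It was 7 without abnormal sample 2 or abnormal sample 3, 8 without normal sample 2 or normal sample 4 and 9 without normal sample 1 or abnormal sample 4. With the replicate block it was 24 of 107, 23 higher and 1 lower, beside 1503 higher and 340 lower of 14130 genes.

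The counts by list stand beside the 7.36% of all genes that were called higher, a share that takes in many genes of low level. With the filter of 5 TPM, 1419 of 6348 genes were called higher, but that is a separate fit, for which no counts by list were made. Of 4 receptors and ligands tested, *Igf2r*, a receptor that clears IGF2, was higher by 0.65 (adjusted p = 0.037 by limma), at 1.76–3.34 TPM in normal and 4.57–6.00 TPM in abnormal fibers. The antisense RNA *Airn* overlaps part of *Igf2r*, and libraries without strand cannot separate reads from the shared stretch by strand. Of 12 docking and adaptor genes, *Sh2b1*, an adaptor that enhances signaling of the receptor, was higher by 0.63 (SE 0.13, adjusted p = 0.0099), with 8.23–10.4 TPM in normal and 12.7–18.6 TPM in abnormal fibers. Of 16 brakes on the receptor and on PI3K, *Ptpn1*, the phosphatase PTP1B that dephosphorylates the receptor, was higher by 0.83 (SE 0.20, adjusted p = 0.020). The *Sh2b1* call held in all 21 alternatives, that of *Ptpn1* in 15 and that of *Igf2r* in 11. *Ptpn1* missed the threshold without normal sample 1 or 2 or abnormal sample 2 or 3 (adjusted p = 0.053–0.066), and *Igf2r* without normal sample 1, 2 or 4, abnormal sample 2, 3 or 4 or young sample 1 (0.051–0.11).

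Further down, 2 of 14 genes of PI3K, PDK1 and AKT were higher, *Pik3r2*, a regulatory subunit of PI3K, by 0.62 (SE 0.14, adjusted p = 0.015 by limma), and *Rictor*, the subunit that defines mTORC2, by 0.72 (SE 0.19, adjusted p = 0.031). Of 15 AKT targets and mTORC1 genes, *Gsk3b*, a kinase that restrains glycogen synthase, was higher by 0.71 (SE 0.21, adjusted p = 0.048). *Pik3r2* was called in 19 of 21 alternatives, *Rictor* in 11 and *Gsk3b* in 7. *Rictor* missed the threshold without any 1 of normal samples 1, 2 and 4 and abnormal samples 2, 3 and 4 (adjusted p = 0.057–0.076), and *Gsk3b* without any 1 of normal samples 2 and 4, abnormal samples 2, 3 and 4 and the 4 young samples (0.054–0.14).

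In the list of GLUT4 vesicle traffic, 5 of 26 genes were higher (19.2%, against 7.36% of all genes). In the separate fit with the filter of 5 TPM, 1419 of 6348 genes were called higher, a larger share than either. *Exoc7*, a subunit of the exocyst that tethers vesicles, was at 22.9–31.7 TPM in normal and 45.0–49.6 TPM in abnormal fibers, a rise of 0.81 (SE 0.14, adjusted p = 0.0039 by limma). *Sort1*, the sorting receptor sortilin of GLUT4 vesicles, was at 7.72–12.6 and 15.7–20.3 TPM, a rise of 0.75 (SE 0.15, adjusted p = 0.0091). *Rab10*, a small GTPase that TBC1D4 acts on, was at 122–143 and 165–206 TPM, a rise of 0.45 (SE 0.09, adjusted p = 0.012). *Sort1* was called in 21 of 21 alternatives, *Exoc7* in all but the one with the *Myh4* share (adjusted p = 0.051) and *Rab10* in all but the one with TMM-type factors (adjusted p = 0.096). The other 2 called were *Vamp2* (0.48, adjusted p = 0.0499) and *Vamp3* (0.33, adjusted p = 0.044), which encode fusion proteins of the vesicle and were named here after their values were seen. They were called in 5 and 8 of 21 alternatives, and the aged groups overlapped for *Vamp3*. *Vamp2* missed the threshold without any 1 sample other than young sample 2 or normal sample 3, and *Vamp3* without young sample 1 or 3, normal sample 1, 3 or 4 or abnormal sample 1, 2 or 3.

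AMPK is an energy sensor that can also raise glucose uptake, and 3 of its 11 genes were higher. This is 27.3%, against 7.36% of all genes. In the separate fit with the filter of 5 TPM, 1419 of 6348 genes were called higher, a share between the other 2. Of the 3, the *Prkag3* call alone held in every alternative. *Prkag3*, its γ3 subunit, which is typical of fast muscle, was at 46.1, 70.5, 65.6 and 73.0 TPM in normal samples 1 to 4 and at 127, 189, 156 and 172 TPM in abnormal samples 1 to 4. It rose by 1.33 (SE 0.17, adjusted p = 0.00077 by limma). The young samples lay between at 79.4–119 TPM, with no overlap with either aged group. *Strada* and *Stk11*, which encode parts of the LKB1 kinase complex upstream of AMPK, were higher by 0.45 (adjusted p = 0.032) and 0.49 (adjusted p = 0.040), and the aged groups overlapped for *Stk11*. These were called in 11 and 6 of 21 alternatives, and *Strada* missed the threshold without any 1 of normal samples 1, 2 and 4 and abnormal samples 2, 3 and 4 (adjusted p = 0.060–0.098), as did *Stk11* (0.064–0.12), which also did so without young sample 1, 2 or 3 (0.052–0.054).

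**Figure D5:**
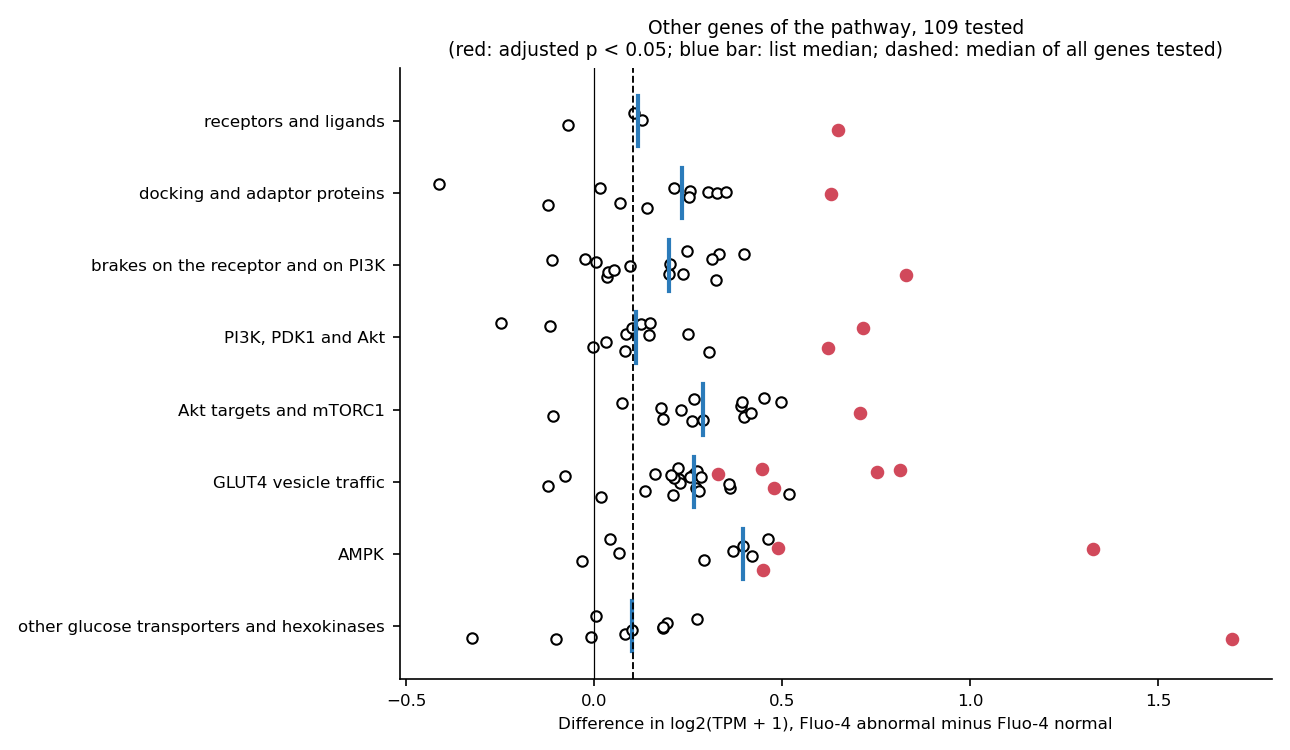
Difference in log2(TPM + 1) between Fluo-4 abnormal and Fluo-4 normal fibers for the 109 tested genes of 8 pathway lists, 1 point per gene, filled red where the adjusted p was under 0.05, with a blue bar at each list's median and a dashed line at the median of all genes tested (0.10). The 15 called genes lie on the right of 0, with *Slc2a3* at 1.70 and *Prkag3* at 1.33.

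In abnormal against young fibers, 10 of the 109 passed the test, which is 9.17% against 8.5% of all genes. Between normal and young fibers limma called 0 of the 109, against 1.15% of all genes.

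The genes whose pattern over the 12 samples was most like that of *Grb14* were sought among 6347 genes of at least 5 TPM in a group, by Pearson's r of log2(TPM + 1). They were *Atp1b1*, a subunit of the sodium pump (r = 0.98), *Ndufa9*, a subunit of respiratory complex I (0.97), *Ckmt2*, the mitochondrial creatine kinase of muscle (0.97), *Mb*, the oxygen store myoglobin (0.96), and *Adamtsl5* (0.96). *Atp1b1* was at 24.8–28.8 TPM in young, 42.0–48.7 TPM in normal and 5.22–13.5 TPM in abnormal fibers. *Ckmt2* was at 1040–1142, 1074–1421 and 183–496 TPM, and *Mb* at 686–1009, 934–1884 and 166–471 TPM. The steps were smaller for *Ndufa9*, at 334–360, 361–374 and 259–301 TPM, and for *Adamtsl5*, at 12.3–15.4, 15.5–18.3 and 7.72–10.1 TPM. A high r thus describes the order of the samples and not the size of the difference. Among the other members of the set of at least 5 TPM, r with *Grb14* ran from -0.89 for *Grb10* to 0.26 for *Slc2a4*. The 12 points share 3 groups and the samples' scaling, and r is a description.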

How the data were processed

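RNA was measured in 12 samples of isolated EDL fibers (3 groups of 4), in libraries made from 10 ng of RNA with SMART-Seq v4, which keeps no strand. The authors used DRAGEN 4.3 for alignment to GRCm39 and for TPM, the length-scaled transcript abundance they deposited in 1 table per sample. Each table had 55487 entries, and 114 symbols on several lines were summed. Read counts were not used here and the depth is unknown, so no counting error is given. Libraries were compared, and 0 pairs were identical.

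Genes were classed by GENCODE vM39 and RefSeq symbols. Protein-coding and mitochondrially-encoded genes with a mean of at least 0.02 TPM in 1 group were tested by limma 3.58.1 in R 4.3.3, on log2(TPM + 1), with all 12 samples, no covariate, a variance trend and Benjamini-Hochberg adjustment over all genes, two-sided, at an adjusted p of 0.05. A pseudocount of 1 understates changes of low genes such as *Irs1*. Changes of 1 and 2 in log2(TPM + 1) were simulated for abnormal against normal fibers with 14276 genes. Of these, 90% and 97% were recovered, and 15 of 202 calls were unchanged genes. The changed genes were drawn only from genes whose mean log2(TPM + 1) was above that of 5 TPM. Genes as low as *Irs1* and *Tbc1d4* could not be drawn, so recovery is not known for them. It was not measured separately for genes near the limit, such as *Slc2a1*. With the pseudocount, such changes exceed 2-fold and 4-fold in TPM, the more so the lower the gene.

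The members and lists were chosen with earlier results of these data known. The genes named are all members, up to 3 called genes with the smallest p per pathway list, the 5 most like *Grb14* and the myosins. Same-numbered aged samples correlated at 0.30 to 0.44 in their deviations from group means over 5994 genes, against -0.36 to 0.23 for other numbers, and were taken as paired in the replicate block. No label says what a number marks. The 10 members had no near-identical copy by BLAST 2.17.0 (95% identity over 100 bp and 50% of the transcript). The span of each, introns included, overlaps another annotated gene, on the opposite strand for at least 1 in all but *Tbc1d4*. Reads from a shared stretch cannot be told apart by strand, and overlap of exons was not checked. *Slc2a4* overlaps the coding gene *Ybx2* over 1427 bp. Results that name some genes are not reported here. Promoters came from RefSeq (GRCm38.p6), gene positions from GENCODE (GRCm39). Figures were drawn with Python 3.11.15 and matplotlib 3.10.9.

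The alternatives changed the scaling (TMM-type factors that trim 30% of ratios and 5% of levels, or leaving mitochondrially-encoded genes out), the filter (none, or 5 TPM), the pseudocount (0.1), the genes (all annotated), the samples (only the groups compared, or 1 sample left out) and the model (replicate block, or *Myh4* share as a covariate).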

Additional observations from a re-analysis of the deposited data

Results flagged for a closer look

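In groups of 4 samples, the highest or lowest value of each member, named pathway gene and ratio was compared with the rest of its group, and 6 of 81 groups had a value whose gap to the next one exceeded Dixon's limit at the 95% level. Chance flags about 1 group in 20.

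For the members, *Akt2* in abnormal sample 4, at 83.1 TPM, was far under the other abnormal samples at 94.4–95.1 TPM, though above all normal and young samples. *Tbc1d4* stood apart in young sample 2, at 1.15 TPM, and in normal sample 1, at 1.71 TPM, both the lowest of their groups. The ratio of *Tbc1d1* to *Tbc1d4* was highest in young sample 2, at 17.4.

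Of the pathway genes, *Igf2r* was low in normal sample 1, at 1.76 TPM against 3.30–3.34 TPM in the other normal samples. *Sort1* was low in young sample 4, at 8.52 TPM.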

How the results depend on the processing

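Genes called between abnormal and normal fibers numbered 1349, but 880 with TMM-type factors, 748 with only the groups compared, 820 with the *Myh4* share and 665 to 1456 without 1 sample each. The 3 members called became 1 with only the groups compared or the *Myh4* share, and 1 to 3 without 1 sample each. The 15 pathway genes became 5 with TMM-type factors, 8 with scaling without mitochondrially-encoded genes, 9 with only the groups compared, 8 with the *Myh4* share and 7 to 16 without 1 sample each. With the replicate block, 24 pathway genes (23 higher and 1 lower) and 4 members were called, beside 1843 of all genes. Against young fibers, the 1 member called in abnormal fibers became 3 with a filter of 5 TPM, the replicate block or only the groups compared, 2 with the *Myh4* share and 1 to 3 without 1 sample each, the 10 pathway genes became 5 with all annotated genes and 3 to 16 without 1 sample each, and the 1227 genes became 604 to 1676. Between normal and young fibers, the 166 genes became 266 with a filter of 5 TPM and 55 to 207 without 1 sample each, and the 0 pathway genes became 5 with TMM-type factors, 3 with a filter of 5 TPM, 2 with the replicate block, 1 with only the groups compared and 0 to 1 without 1 sample each. The replicate block changed 1 other call of a member between aged groups, that of *Irs2*, and the calls of *Irs2* and *Slc2a1* against young fibers, whose numbers do not pair (same-number correlations from 0.0049 to 0.18).

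Small differences turned sign, each of a member not called in the comparison. Between the aged groups, *Slc2a4* was at 0.0484 with the *Myh4* share and -0.13 to 0.0182 without 1 sample each, *Tbc1d1* at -0.18 with TMM-type factors, -0.0249 with scaling without mitochondrially-encoded genes and -0.18 to 0.23 without 1 sample each, and *Tbc1d4* at 0.52 with the *Myh4* share. Against young fibers, *Irs1* in abnormal fibers was at -0.10 with TMM-type factors, -0.0076 with scaling without mitochondrially-encoded genes and -0.0918 to 0.11 without 1 sample each. In normal fibers, *Insr* was at 0.0302, 0.0056 and -0.20 to 0.19 in the same order, *Irs2* at 0.0401, 0.0116 and -0.26 to 0.35, and *Slc2a1* at -0.26 to 0.11 without 1 sample each. The *Grb14* difference between aged groups was -2.50 to -1.91 over all alternatives. The cause was not tested. TPM hold no depth, so the precision of low genes such as *Irs1* and *Tbc1d4* is unknown.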
